A study of Mus musculus with 4 samples.

Results

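The genes described here encode the zinc proteases of the Adam, Adamts and Mmp families and the Timp inhibitors that block them. Also included are Plau, Plat and Plaur, genes of the plasminogen activator system. Members were defined by symbol: Adam, Adamts, Adamtsl, Mmp or Timp followed by a number, and the names Plau, Plat and Plaur. This gave 87 of the 23847 rows of the deposited table. The 87 members comprise 33 Adam, 24 Adamts and Adamts-like, 23 Mmp and 4 Timp genes and the 3 plasminogen activator system genes. Expression was measured by RNA sequencing of dissociated back-skin epidermis at postnatal day 20, in 2 libraries from mice lacking Irx5 (Irx5KO, also given as Irx5-/-) and 2 from wild-type mice (WT, Irx5+/+). The skin was treated with trypsin, the epidermal side was separated by hand and the suspension was filtered. The knockout allele, its promoter or breeding, the strain and the litters are not described in the labels. Each library was taken as 1 mouse. The p-values below rest on 4 libraries only, with each gene's spread drawn toward that of other genes of similar level.

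Adam proteins sit in the cell membrane and release the outer parts of other membrane proteins, among them epidermal growth factor receptor ligands and Notch, a step called shedding. Adamts and Mmp enzymes act mainly on extracellular matrix, and most are held inactive by a prodomain until it is removed. Timp proteins bind the active site of Mmps and of some Adam and Adamts enzymes, while urokinase (Plau) and its receptor (Plaur) generate plasmin at the cell surface, which in turn activates several Mmps. In epidermis these systems are known from wound closure, hair cycling and shedding of growth factors.

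Levels are FPKM, fragment counts scaled for transcript length and sequencing depth, taken from the table the authors deposited; FPKM is already divided by length, so levels of different genes can be set side by side. The deposited values summed to 451080 and 511333 in the Irx5KO libraries and 603270 and 538695 in the WT libraries, and the depth estimated from the steps between low values was 52300000 to 60050000 fragments. Irx5 itself had 10.01 and 10.08 FPKM in Irx5KO replicates 1 and 2, against 17.4 and 16.4 FPKM in WT replicates 1 and 2 (log2 fold change -0.70, limma adjusted p = 0.0117), so its transcript was lower but present. The adjusted p for Irx5 was 0.103 without Irx5KO replicate 1 and 0.0899 without Irx5KO replicate 2. Keratinocyte markers were abundant in all 4 libraries (Krt5 at 3429 and 2976 FPKM in Irx5KO, against 4394 and 3841 FPKM in WT). Of the 6 examined, Krt14 was called lower (9.22% of all rows tested were) and 5 did not pass. Krt14 measured 1520 and 1576 FPKM in Irx5KO and 4807 and 5211 FPKM in WT (limma adjusted p = 0.00439). Krt5, Cdh1 and Epcam lay below WT in both Irx5KO libraries, Krt1 lay above and Krt10 overlapped. The dermal fibroblast markers apart from Thy1 summed to 1.98 to 2.80 FPKM in Irx5KO and 2.88 to 4.49 FPKM in WT. Xist was at 0.0606 and 0.0459 FPKM in Irx5KO and 36.6 and 33.9 FPKM in WT, and the 4 Y-linked genes examined were called higher in Irx5KO, so that genotype and sex cannot be told apart in any comparison below. Of 10 early genes that tissue dissociation induces, 8 fell in Irx5KO and none rose, where 9.22% of all rows tested fell and 26.9% rose. The 10 genes summed to 1964 to 3602 FPKM in Irx5KO and 7901 to 8792 FPKM in WT. The part of sex and of these early genes in the results below was not tested.

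A row was tested when at least 2 of the 4 libraries reached 1 FPKM, and a gene is called when its limma adjusted p, taken over all 11643 rows tested, was below 0.05. Changes are Irx5KO minus WT on the scale log2(FPKM + 1), on which low genes show smaller changes than on a plain ratio. Of the 87 members 22 were tested; 5 were higher in Irx5KO, 7 were lower and 10 did not pass. Of the tested members 22.7% were called higher and 31.8% lower, or 54.5% in either direction. Over all rows tested 26.9% were called higher and 9.22% lower, or 36.1% in either direction. The members were chosen with earlier results of these data known, so their shares are no test of them as a group. The libraries of one genotype lay wholly above those of the other for 18 tested members, with Irx5KO above WT in 10 (54.3% of all rows tested did so) and below WT in 8 (18% of all rows tested). Adam1a reached 1 FPKM in Irx5KO only and Mmp3 and Plaur in WT only, so those 3 had to differ; among the other 19 members 4 were higher and 5 lower. The median change was 0.13 over the tested members and 0.26 over all rows tested. Scaling the libraries by the median of ratios moved these medians to -0.12 and -0.00, with 2 members higher and 7 lower. Scaling each library to the same sum (TPM) moved them to 0.36 and 0.50, with 9 members higher and 5 lower. Changes of about 0.5 log2 units or less, and some larger ones, thus depend on how the libraries are scaled. Plat, at -0.74, was not called in TPM (limma adjusted p = 0.0685). Adam10, at 0.60, was not called under the median of ratios (limma adjusted p = 0.221).

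**Figure D1:**
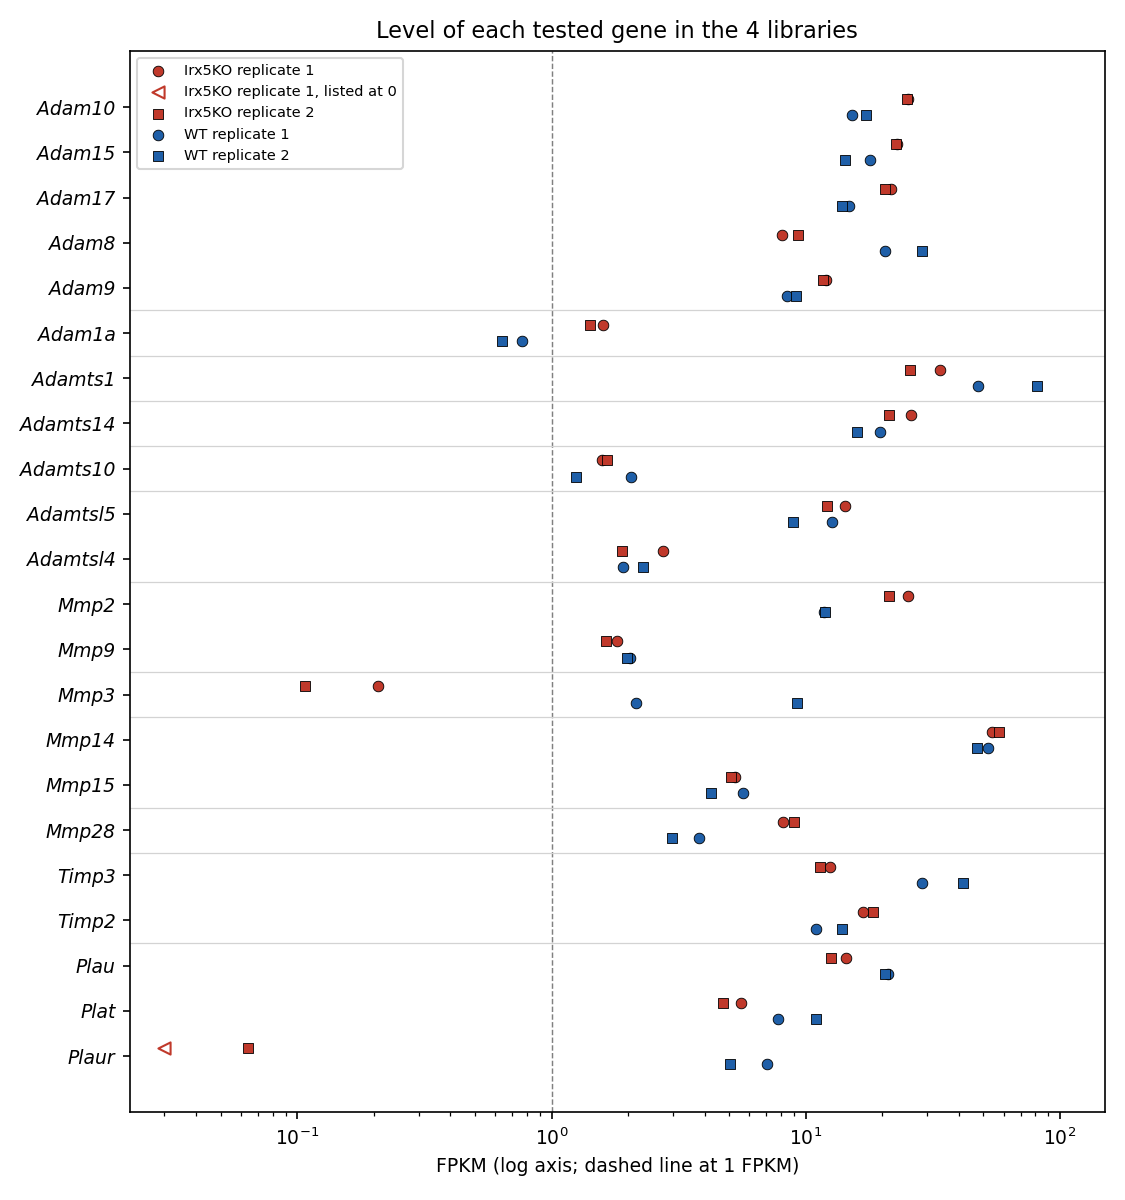
FPKM (log axis) of the 22 tested genes in each library, with Irx5KO in red above WT in blue and circles and squares for replicates 1 and 2; an open triangle marks a value listed at 0 and grey lines separate the classes. Plaur and Mmp3 lie far below 1 FPKM in both Irx5KO libraries and above it in both WT libraries, while Mmp14 stays near 50 FPKM throughout.

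The promoters of the Mmp genes clustered on chromosome 9 and of Plaur are shown first. Plaur and the cluster gene Mmp3 had the largest falls of the tested members. In addition, 7 of the cluster's 10 genes share a short motif close to the start site. Of those 7, Mmp7 was listed at 0 in all 4 libraries, and Mmp1a and Mmp1b were above 0 in WT replicate 2 alone. The motif searched was the AP-1 site, TGACTCA or TGAGTCA, which are each other's reverse complement, so both strands are covered. Windows run from 250 bases before to 50 bases after each RefSeq start site (build GRCm38.p6), and 54 of the 87 members have at least 1. The sequences are credited to RefSeq, are written 5′ to 3′ on the gene's own strand, and have the AP-1 letters in capitals. The first pair are whole windows of 300 bases and the rest show the motif with its flanks.
Mmp3 (chr9:7445572-7445871, + strand): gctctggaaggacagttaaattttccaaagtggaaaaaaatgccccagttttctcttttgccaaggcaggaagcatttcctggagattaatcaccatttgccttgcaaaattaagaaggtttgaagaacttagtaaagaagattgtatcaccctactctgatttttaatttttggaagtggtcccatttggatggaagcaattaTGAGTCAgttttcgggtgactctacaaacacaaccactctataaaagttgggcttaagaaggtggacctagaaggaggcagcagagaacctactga
Plaur (chr7:24462233-24462532, + strand): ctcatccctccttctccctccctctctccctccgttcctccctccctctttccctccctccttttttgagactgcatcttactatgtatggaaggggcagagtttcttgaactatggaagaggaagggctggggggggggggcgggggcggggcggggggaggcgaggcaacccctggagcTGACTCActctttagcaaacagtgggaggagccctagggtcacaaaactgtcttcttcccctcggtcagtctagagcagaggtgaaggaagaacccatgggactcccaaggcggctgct
Mmp10 (chr9:7502268-7502297, + strand): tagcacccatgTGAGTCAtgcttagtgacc
Mmp12 (chr9:7347319-7347348, + strand): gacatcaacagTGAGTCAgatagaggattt
Mmp13 (chr9:7272468-7272497, + strand): ccccaaagtggTGACTCAtcactatcatgc
Mmp1a (chr9:7464057-7464086, + strand): gttgtcaaccaTGAGTCAcatagcctctgg
Mmp1b (chr9:7388101-7388130, - strand): gttacaaagccTGAGTCAtatagcctctgg
Mmp7 (chr9:7692016-7692045, + strand): aagtgtgcaaaTGAGTCAcctatttccaca
In all 8 of these genes the motif begins between 35 bases (Mmp13) and 93 bases (Mmp1b) before a start site, at 46 bases for Mmp3 and 69 bases for Plaur. Mmp12 and Mmp7 have 2 windows each, with the motif in 1 of them. For Mmp12 that window lies downstream of the first base of the gene model, 7344381. The motif was present in 1709 of all 32851 promoter windows, which is 5.20%, in 7 of the 12 windows of the cluster and in 0 of the 9 windows of Mmp genes elsewhere. Of the members called lower, Mmp3 and Plaur have it and Adam8, Adamts1 and Timp3 do not. Of those called higher, Adam10, Adam17, Adam1a and Mmp28 do not have it. Mmp3 and Plaur reached 1 FPKM in WT only, so they had to differ, and these matches are no test of the calls. The called genes Plau, Plat and Mmp2 have no window in the table and were not examined. Outside the cluster and Plaur the motif was also in windows of Adam19 and Adam1b, which were below the filter and higher in both Irx5KO libraries than in either WT library, and of Adam29, which was listed at 0 throughout. A second motif known from Mmp promoters, the PEA3 site (AGGAAG or CTTCCT), was in 8 of the 12 cluster windows and in 35.4% of all windows. By call, it was in 3 of the 5 windows of members called lower and 2 of the 4 windows of members called higher. These matches describe letters in a window and were not measured as binding.

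All 3 genes of the plasminogen activator system, Plau, Plat and Plaur, were called lower in Irx5KO, against 9.22% of all rows tested. Plaur reached 1 FPKM in WT only, so it had to differ. Plaur, the cell-surface receptor that holds urokinase, was listed at 0 and at 0.0640 FPKM in Irx5KO replicates 1 and 2, against 7.02 and 5.06 FPKM in WT replicates 1 and 2. Both Irx5KO libraries were thus near the bottom of the measurable range, at an estimated 0 and 6.05 fragments, against 687 and 549 fragments in WT. Its mean was 0.0320 ± 0.0452 FPKM in Irx5KO and 6.04 ± 1.39 FPKM in WT (SD, n = 2 each), or 0.530% of WT (log2 fold change -2.76, SE 0.186, limma adjusted p = 3.08e-05). With a pseudocount of 0.1 the log2 change of Plaur was -5.56, and it was called lower under every scaling and with each library left out. The gene lies on chromosome 7 at 24462484 to 24475968 (mm10, GENCODE M21).

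Plau, urokinase itself, measured 14.4 and 12.6 FPKM in Irx5KO and 21.1 and 20.4 FPKM in WT, with no overlap. Its mean stood at 64.9% of WT (-0.59, SE 0.167, limma adjusted p = 0.0242). Plat, tissue plasminogen activator, measured 5.57 and 4.75 FPKM in Irx5KO and 7.79 and 10.97 FPKM in WT, also without overlap, and stood at 55.0% of WT (-0.74, SE 0.199, limma adjusted p = 0.0205). Both were less firm than Plaur. Scaling each library to the same sum (TPM) ended the calls of Plau (-0.37, adjusted p = 0.139) and Plat (-0.56, adjusted p = 0.0685). Plau was not called without Irx5KO replicate 1 (adjusted p = 0.112) or replicate 2 (0.247), and Plat was not called without Irx5KO replicate 2 (0.121) or WT replicate 2 (0.0572). Scaling by the median of ratios kept both, at -0.88 for Plau and -1.01 for Plat. Plau lies on chromosome 14 at 20836660 to 20843385 and Plat on chromosome 8 at 22757727 to 22782844.

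The inhibitors moved apart: Timp3 fell, while Timp2 was higher in each Irx5KO library than in either WT library without passing the test. Timp3, which is bound to the matrix and inhibits Adam17 as well as Mmps, measured 12.5 and 11.4 FPKM in Irx5KO replicates 1 and 2, against 28.6 and 41.4 FPKM in WT replicates 1 and 2. The Irx5KO libraries lay close together and the WT libraries well above them. The mean was 11.9 ± 0.761 FPKM in Irx5KO and 35.0 ± 9.02 FPKM in WT (SD, n = 2 each; -1.46, SE 0.204, limma adjusted p = 0.00129), and Timp3 was called lower under all 14 alternatives tried, with changes of -1.74 to -1.20. It lies on chromosome 10 at 86300372 to 86349506, inside Syn3, which runs on the other strand and was below 0.5 FPKM in all 4 libraries (0.383 and 0.415 FPKM in Irx5KO, 0.163 and 0.199 FPKM in WT).

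Timp2, which inhibits Mmp2 and also helps Mmp14 to activate it, measured 16.7 and 18.4 FPKM in Irx5KO and 10.98 and 13.9 FPKM in WT (0.47, 95% interval 0.07 to 0.88, limma adjusted p = 0.0668). The call depended on the setting, with an adjusted p = 0.00939 after scaling to TPM and 0.0267 without WT replicate 2, against 0.500 under the median of ratios. Timp3 made up 42.4% and 37.8% of the summed Timp FPKM in Irx5KO and 70.9% and 73.4% in WT, and Timp2 made up 57.0% and 61.0% in Irx5KO and 27.2% and 24.6% in WT. Timp2 was thus the most abundant Timp transcript in both Irx5KO libraries and Timp3 in both WT libraries, an order that no scaling of whole libraries can change. Summed over the family, Timp transcripts came to 29.4 and 30.1 FPKM in Irx5KO and 40.4 and 56.4 FPKM in WT.

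Timp1, a soluble inhibitor induced in wounds, and Timp4 were below the filter. Timp1 measured 0.136 and 0.225 FPKM in Irx5KO, against 0.649 and 1.10 FPKM in WT, which is an estimated 4.995 and 8.03 fragments in Irx5KO and 23.97 and 45.1 fragments in WT. The groups did not overlap, but with no filter on level Timp1 did not pass (limma adjusted p = 0.0566). Timp1 is the only member on chromosome X, at 20870166 to 20874735, and genotype and sex cannot be told apart in these libraries. Timp4 overlapped between the genotypes, at 0.0305 and 0.110 FPKM in Irx5KO and 0.106 and 0.0547 FPKM in WT.

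**Figure D2:**
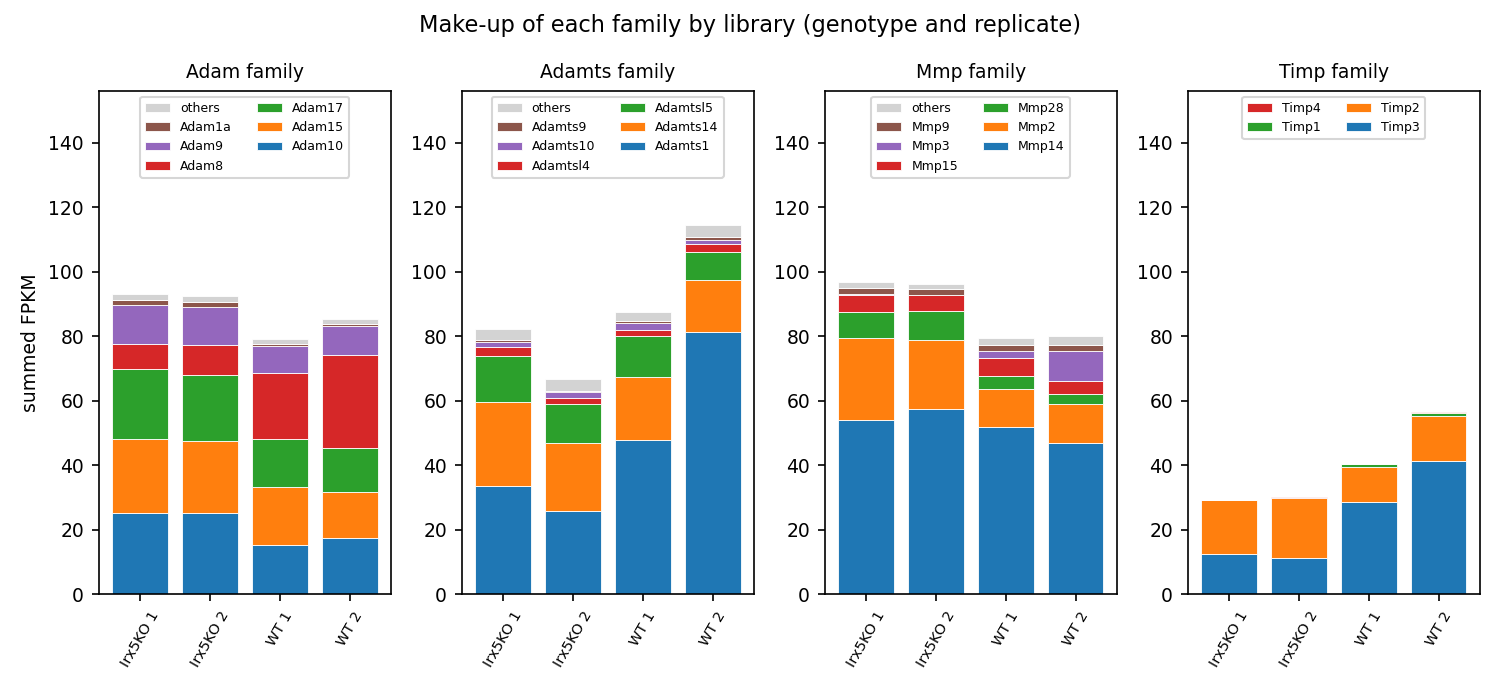
Summed FPKM of the Adam, Adamts, Mmp and Timp families in each library, Irx5KO left of WT, stacked by the 6 most abundant genes of each family and the others in grey. Adam8 and Timp3 take smaller parts of their columns in Irx5KO than in WT, and Adamts1 is largest in WT replicate 2.

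Among the membrane-bound Adam proteases, Adam8 fell while Adam10 and Adam17 rose. The 5 tested members with protease activity had means of 8.69 to 25.1 FPKM in Irx5KO and 8.82 to 24.6 FPKM in WT. Adam8, an Adam known best from leukocytes that also cleaves adhesion proteins, measured 8.04 and 9.34 FPKM in Irx5KO replicates 1 and 2, against 20.5 and 28.6 FPKM in WT replicates 1 and 2. Both Irx5KO libraries were far below both WT libraries. The mean was 8.69 ± 0.917 FPKM in Irx5KO and 24.6 ± 5.72 FPKM in WT (SD, n = 2 each; -1.39, SE 0.200, limma adjusted p = 0.00148), and all 14 alternatives kept the call, with changes of -1.67 to -1.15. Adam8 lies on chromosome 7 at 139978932 to 139992562. Of 5 Langerhans cell and macrophage markers 3 were tested, and Cd207 and Cd74 fell (9.22% of all rows tested did). Csf1r did not pass, at 6.41 and 6.82 FPKM in Irx5KO and 5.94 and 5.37 FPKM in WT. Below the filter, Lyz2 was lower in both Irx5KO libraries than in either WT library and Itgam overlapped. The 5 markers summed to 195 to 258 FPKM in Irx5KO and 439 to 633 FPKM in WT. Most of this was Cd74, at 178 and 235 FPKM in Irx5KO and 519 and 336 FPKM in WT. Of 5 T cell markers, all tested, Cd2 fell, at 3.11 and 3.23 FPKM in Irx5KO and 11.2 and 6.09 FPKM in WT. The other 4, Cd3e, Cd3g, Ptprc and Thy1, did not pass and overlapped between the genotypes. The part of the markers of either list in the change of Adam8 was not tested. In bulk RNA fewer cells of a type and less RNA per cell cannot be told apart.

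Adam10, the main sheddase of Notch receptors and E-cadherin, measured 25.2 and 25.1 FPKM in Irx5KO and 15.2 and 17.3 FPKM in WT (0.60, SE 0.166, limma adjusted p = 0.0230). Adam17, which sheds amphiregulin, transforming growth factor alpha and tumour necrosis factor, measured 21.6 and 20.4 FPKM in Irx5KO and 14.9 and 13.9 FPKM in WT (0.52, SE 0.163, limma adjusted p = 0.0363). In both genes the Irx5KO libraries lay wholly above the WT libraries. These rises were 0.34 and 0.26 above the median of all rows, and they passed on the deposited scale and after scaling to TPM (each library to the same sum) but not under the median of ratios (Adam10 0.31, adjusted p = 0.221; Adam17 0.23, adjusted p = 0.309) or quantile normalization (adjusted p = 0.0700 and 0.133). Adam10 was not called without Irx5KO replicate 1 (adjusted p = 0.174) or replicate 2 (0.156), and Adam17 was not called without Irx5KO replicate 1 (0.287), Irx5KO replicate 2 (0.194) or WT replicate 2 (0.0537). Adam10 lies on chromosome 9 at 70678997 to 70780229. Adam17 lies on chromosome 12 at 21323509 to 21373632 and overlaps Iah1 on the other strand by 311 bases.

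Adam15 and Adam9, both membrane sheddases with a disintegrin domain, had the same order of libraries without passing. Adam15 measured 22.9 and 22.6 FPKM in Irx5KO and 17.9 and 14.3 FPKM in WT (0.48, 95% interval 0.08 to 0.88, limma adjusted p = 0.0602), and it passed after scaling to TPM (adjusted p = 0.00539) and without WT replicate 1 (0.0152). Adam9 measured 11.98 and 11.7 FPKM in Irx5KO and 8.45 and 9.19 FPKM in WT (0.39, 95% interval 0.02 to 0.76, limma adjusted p = 0.0916), and it passed after scaling to TPM (adjusted p = 0.0207). Adam8 supplied 8.62% and 10.1% of the summed Adam FPKM in Irx5KO and 25.9% and 33.5% in WT, where it was the most abundant Adam transcript of both libraries. In Irx5KO that place was taken by Adam10, with 27.0% in each library.

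Many of the other Adam genes are known from testis, and 12 of the 24 were listed at 0 in every library. Adam1a, a fertilin alpha gene of the mouse, was the tested one, at 1.59 and 1.41 FPKM in Irx5KO and 0.768 and 0.639 FPKM in WT (0.55, SE 0.159, limma adjusted p = 0.0261). It rose on the deposited scale and with a pseudocount of 0.1 (0.996) but did not pass under the median of ratios (adjusted p = 0.0846) or quantile normalization (0.123), without either Irx5KO library (0.171 and 0.0845) or without WT replicate 2 (0.0736). The gene model spans Mapkapk5 on the same strand of chromosome 5, a gene at 27.8 and 29.5 FPKM in Irx5KO and 34.7 and 31.1 FPKM in WT, so reads could be shared. Its near copy Adam1b, below the filter, measured 0.374 and 0.276 FPKM in Irx5KO and 0.133 and 0.105 FPKM in WT.

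Of the Adamts genes, the hyalectanase Adamts1 fell and no other tested member passed. Adamts1, which cleaves the proteoglycans versican and aggrecan, measured 33.6 and 25.7 FPKM in Irx5KO replicates 1 and 2, against 47.8 and 81.5 FPKM in WT replicates 1 and 2. The groups did not overlap, but the WT libraries differed widely from each other. The mean was 29.7 ± 5.58 FPKM in Irx5KO and 64.6 ± 23.8 FPKM in WT (SD, n = 2 each; -1.06, SE 0.260, limma adjusted p = 0.0143), and the change shrank to -0.68 without WT replicate 2, where it was still called. With no filter on level it did not pass (adjusted p = 0.0982). Adamts1 lies on chromosome 16 at 85793827 to 85803113 and was the Adamts gene of highest mean level in both genotypes.

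Adamts14, which trims the amino-terminal propeptide of fibrillar procollagens, came next at 26.01 and 21.2 FPKM in Irx5KO and 19.6 and 15.9 FPKM in WT (0.39, 95% interval -0.03 to 0.82, limma adjusted p = 0.129). It passed after scaling to TPM (adjusted p = 0.0154) and without WT replicate 1 (0.0464). Adamts10, which binds fibrillin microfibrils, overlapped between the genotypes at 1.59 and 1.65 FPKM in Irx5KO and 2.05 and 1.252 FPKM in WT (-0.00, 95% interval -0.43 to 0.43). The Adamts-like proteins share the ancillary domains of this family but have no protease domain. Adamtsl5 measured 14.2 and 12.1 FPKM in Irx5KO and 12.7 and 8.87 FPKM in WT (0.28, 95% interval -0.18 to 0.74; adjusted p = 0.0428 without WT replicate 1), and Adamtsl4 measured 2.76 and 1.90 FPKM in Irx5KO and 1.90 and 2.30 FPKM in WT (0.09, 95% interval -0.33 to 0.52). Both overlapped between the genotypes.

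Of the 6 tested Mmp genes Mmp2 and Mmp28 rose, Mmp3 fell, and Mmp9, Mmp14 and Mmp15 did not pass. Mmp28, or epilysin, a secreted Mmp known from keratinocytes, measured 8.15 and 8.95 FPKM in Irx5KO and 3.79 and 2.97 FPKM in WT, with no overlap. Its mean was 8.55 ± 0.567 FPKM in Irx5KO and 3.38 ± 0.577 FPKM in WT (SD, n = 2 each; 1.13, SE 0.177, limma adjusted p = 0.00217), and it was called higher under all 14 alternatives (0.83 to 1.45). It lies on chromosome 11 at 83440768 to 83463071 and overlaps 1700020L24Rik on the other strand by 466 bases. That neighbour was also called higher, at 11.4 and 12.5 FPKM in Irx5KO and 6.55 and 3.71 FPKM in WT, and reads in the shared bases cannot be told apart without strand.

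Mmp2, gelatinase A, which cleaves basement membrane collagen, measured 25.3 and 21.3 FPKM in Irx5KO and 11.8 and 11.9 FPKM in WT. Both Irx5KO libraries lay far above the nearly equal WT libraries (0.91, SE 0.171, limma adjusted p = 0.00474). It stayed called under the median of ratios (0.62, adjusted p = 0.0306) and quantile normalization (0.74, adjusted p = 0.0200) but not without Irx5KO replicate 1 (0.79, adjusted p = 0.0551). Mmp2 lies on chromosome 8 at 92827291 to 92853420, and Irx5 lies on the same chromosome at 92357625 to 92376286. Of 8 dermal fibroblast markers Thy1, which T cells also express, was the only one tested and did not pass, at 13.8 and 15.1 FPKM in Irx5KO and 19.97 and 8.76 FPKM in WT. The other 7 had means below 1 FPKM in both genotypes: Col1a1, Col1a2, Col3a1 and Pdgfrb were lower in both Irx5KO libraries than in either WT library, and Dcn, Lum and Pdgfra overlapped. Their part in the level of Mmp2 was not tested. Mmp9, gelatinase B, was at 1.81 and 1.64 FPKM in Irx5KO and 2.04 and 1.99 FPKM in WT and did not pass (-0.15, 95% interval -0.51 to 0.22, limma adjusted p = 0.494).

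Mmp14, the membrane-type enzyme that activates pro-Mmp2, was the most abundant Mmp transcript in every library, at 54.2 and 57.5 FPKM in Irx5KO and 52.0 and 47.1 FPKM in WT. The difference did not pass (0.17, 95% interval -0.22 to 0.56, limma adjusted p = 0.455) and its sign turned under the median of ratios (-0.13). Mmp15, a second membrane-type enzyme, overlapped between genotypes at 5.27 and 5.09 FPKM in Irx5KO and 5.69 and 4.24 FPKM in WT (0.06, 95% interval -0.35 to 0.48).

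**Figure D3:**
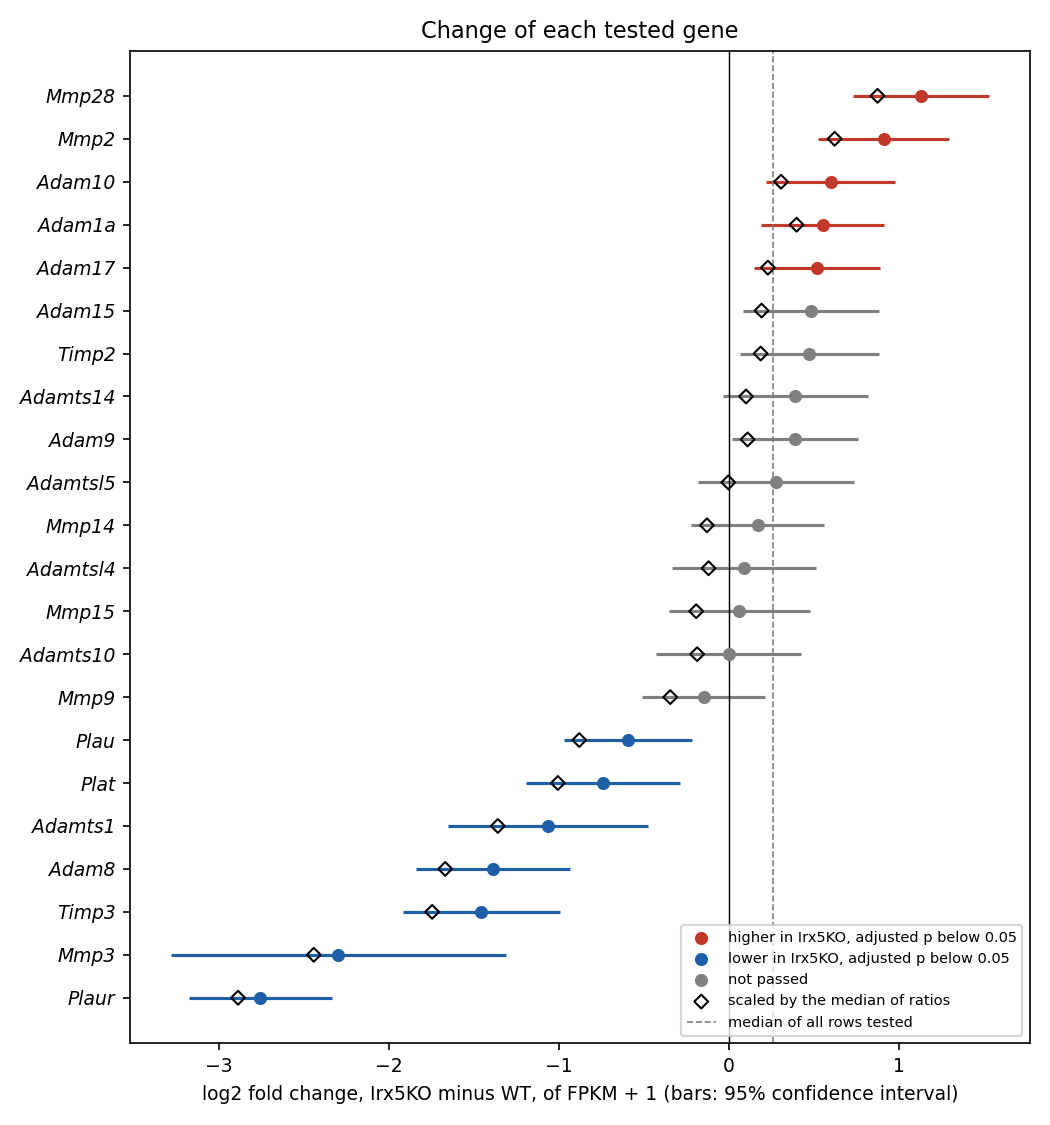
Change of the 22 tested genes as Irx5KO minus WT in log2(FPKM + 1), with 95% confidence intervals from limma, coloured by call; diamonds give the change after scaling by the median of ratios and the dashed line the median of all rows tested, 0.26. Diamonds of the 7 genes called lower stay left of 0, and those of Adam10, Adam17 and Adam1a shift toward it.

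Mmp3, stromelysin 1, which degrades proteoglycans and activates other Mmps, measured 0.208 and 0.107 FPKM in Irx5KO replicates 1 and 2, against 2.14 and 9.26 FPKM in WT replicates 1 and 2. Both Irx5KO libraries were near 0 and the WT libraries differed several-fold from each other. At the estimated depth these levels stand for 17.9 and 8.98 fragments in Irx5KO and 186 and 891 fragments in WT. The mean was 0.158 ± 0.0711 FPKM in Irx5KO and 5.70 ± 5.03 FPKM in WT (SD, n = 2 each; -2.30, SE 0.435, limma adjusted p = 0.00493). The change was -1.44 without WT replicate 2 and -4.18 with a pseudocount of 0.1, and the call was lost with robust empirical Bayes (adjusted p = 0.113) and with no filter on level (adjusted p = 0.0832).

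Mmp3 belongs to a run of 10 Mmp genes on chromosome 9, from 7272514 to 7699585. It was the only one of the 10 tested; 8 were above 0 in at least 1 library, and Mmp7 and Mmp8 were listed at 0 in all 4. Summed over the run the level was 0.231 and 0.130 FPKM in Irx5KO and 2.47 and 10.3 FPKM in WT. In 4 genes, Mmp13, Mmp12, Mmp3 and Mmp10, both Irx5KO libraries lay below both WT libraries, and in no gene did they lie above. Over all rows above 0 that were not tested, as 7 of these 8 genes were not, the Irx5KO libraries lay below WT in 14.8% and above in 29.7%; over rows tested, as Mmp3 was, the shares were 18% and 54.3%.

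Mmp12, the macrophage elastase, measured 0.00540 and 0.0223 FPKM in Irx5KO and 0.204 and 0.261 FPKM in WT, an estimated 1.24 and 4.98 fragments in Irx5KO and 47.1 and 67.1 fragments in WT. With no filter on level Mmp12 was called lower (-0.28, limma adjusted p = 0.0313); in that fit 3.86% of the 18467 rows were called lower. Mmp10, stromelysin 2, known from the keratinocytes at wound edges, measured 0.0122 and 0 FPKM in Irx5KO and 0.0970 and 0.542 FPKM in WT. Mmp13, a collagenase, was listed at 0 in both Irx5KO libraries and at 0.00739 and 0.160 FPKM in WT. Neither Mmp10 nor Mmp13 passed without the filter (adjusted p = 0.218 and 0.352), and both were highest in WT replicate 2, as was Mmp3. The remaining collagenases Mmp1a and Mmp1b had a value above 0 in WT replicate 2 alone, at 0.0272 and 0.0184 FPKM.

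**Figure D4:**
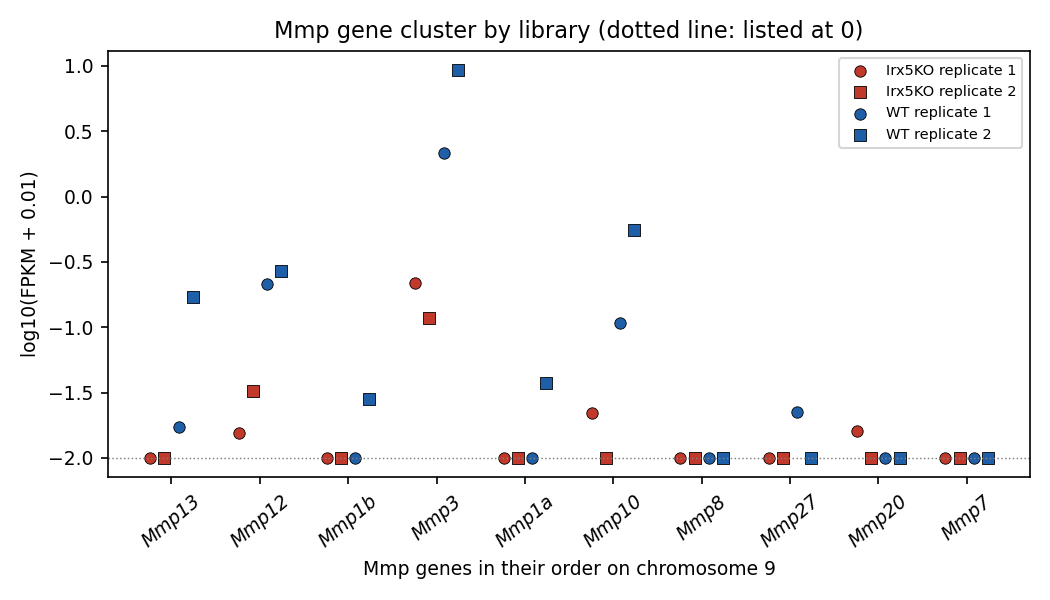
Level of the 10 clustered Mmp genes in each library as log10(FPKM + 0.01), in their order along chromosome 9, Irx5KO in red left of WT in blue. Points on the dotted line are listed at 0; Mmp13, Mmp12, Mmp3 and Mmp10 are the genes in which both WT libraries lie above both Irx5KO libraries.

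The 65 members below the filter were low throughout: 15 were listed at 0 in every library, and the highest single value among the rest was 1.28 FPKM (Mmp11 in Irx5KO replicate 1). Those at 0 were Adam5, Adam6a, Adam7, Adam18, Adam20, Adam24, Adam25, Adam26a, Adam26b, Adam29, Adam34, Adam39, Adamts16, Mmp7 and Mmp8. Of the other 50, the Irx5KO libraries lay above WT in 11 and below WT in 14, while over all untested rows above 0 the shares were 29.7% and 14.8%. Adamts4, a hyalectanase, measured 0 and 0.0273 FPKM in Irx5KO and 0.263 and 0.769 FPKM in WT, an estimated 0 and 5.99 fragments in Irx5KO and 59.6 and 193 fragments in WT. Adamts19, a secreted family member, measured 0.633 and 0.743 FPKM in Irx5KO and 0.294 and 0.373 FPKM in WT, and was called higher with no filter on level (0.34, limma adjusted p = 0.0496), where 6.98% of rows were. Adamts15 was also higher in both Irx5KO libraries, at 0.211 and 0.361 FPKM, against 0.0350 and 0.109 FPKM in WT, without passing there (adjusted p = 0.0884). These 3 were named after their values were seen.

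Genes that work with the proteases were taken from a list of 30 inhibitors, partners and substrates, of which 26 were tested, 3 rose and 9 fell. These are 11.5% and 34.6% of the tested genes of the list, against 26.9% and 9.22% of all rows tested. The list was chosen with earlier results of these data known, so these shares are no test of the list. Serpinb2, an inhibitor of urokinase, measured 102 and 95.3 FPKM in Irx5KO and 610 and 1488 FPKM in WT (-3.26, limma adjusted p = 4.71e-04). Serpine2 did not pass, at 2.21 and 1.44 FPKM in Irx5KO and 3.09 and 2.65 FPKM in WT, and Plg, which encodes plasminogen, was listed at 0 in all libraries.

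Of the 8 tested partners of Adam10 and Adam17 3 rose, 1 of 3 for Adam17 and 2 of 5 for Adam10, where 26.9% of all rows tested were called higher. Frmd8, which stabilises the iRhom proteins that carry Adam17 to the surface, measured 12.2 and 14.6 FPKM in Irx5KO and 7.57 and 6.75 FPKM in WT (0.82, limma adjusted p = 0.00827), and was not called without Irx5KO replicate 2 (0.70, adjusted p = 0.0893). The iRhom genes Rhbdf1 and Rhbdf2 did not pass (adjusted p = 0.293 and 0.421). Tspan5, a tetraspanin that escorts Adam10, measured 34.6 and 40.5 FPKM in Irx5KO and 20.1 and 18.3 FPKM in WT (0.93, limma adjusted p = 0.00454). Tspan33, of the same group, measured 2.33 and 4.03 FPKM in Irx5KO and 1.17 and 1.80 FPKM in WT (0.73, limma adjusted p = 0.0358); it was not called under the median of ratios (adjusted p = 0.142) or quantile normalization (0.213), without Irx5KO replicate 2 (0.44, adjusted p = 0.266) or without WT replicate 1 (adjusted p = 0.128). Furin, a convertase that removes the prodomains of many Adam and membrane-type Mmp proteins, did not pass, at 22.8 and 26.6 FPKM in Irx5KO and 26.2 and 32.2 FPKM in WT. Neither did Bsg, the Mmp inducer basigin, at 181 and 206 FPKM in Irx5KO and 220 and 164 FPKM in WT. The convertases Pcsk6 and Pcsk7 and the tetraspanins Tspan14, Tspan15 and Tspan17 did not pass either (adjusted p = 0.0762 to 0.956), and Reck, Pcsk5 and Tspan10 were below the filter.

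Of the 12 known substrates of shedding 8 fell (66.7%, against 9.22% of all rows tested) and none rose (26.9% of all rows tested did). The growth factor precursors cleaved by Adam17 were among them: Areg measured 4.50 and 5.41 FPKM in Irx5KO and 91.1 and 81.5 FPKM in WT, and Hbegf 5.48 and 14.1 FPKM in Irx5KO and 89.7 and 140 FPKM in WT. Epgn fell by 6.04 on the log2 scale, Ereg fell by 3.27 and Tgfa fell by 1.02. Notch1, an Adam10 substrate, measured 34.1 and 28.8 FPKM in Irx5KO and 54.0 and 70.7 FPKM in WT (-0.96, limma adjusted p = 0.00708). Cd44, the hyaluronan receptor, stood at 35.7% of WT and the heparan sulphate proteoglycan gene Sdc4 at 37.1%. The 4 that did not pass were Btc, Cdh1, Sdc1 and Tnf. These substrates belong to the list chosen with earlier results of these data known, so their shares are no test of substrates as a group.

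**Figure D5:**
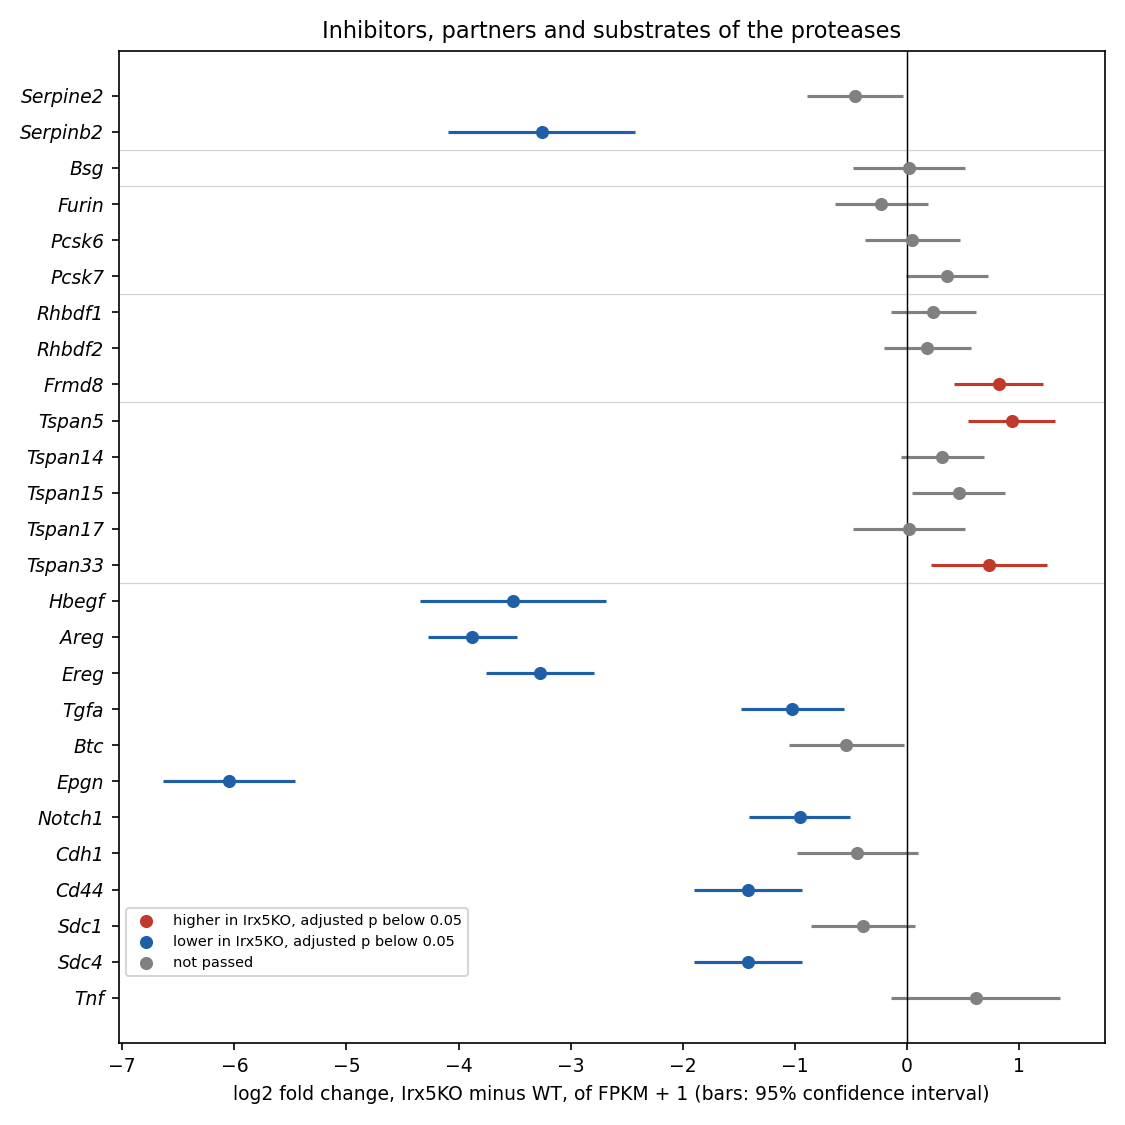
Change of the 26 tested inhibitors, partners and substrates as Irx5KO minus WT in log2(FPKM + 1), with 95% confidence intervals from limma, coloured by call and grouped by role from inhibitors at the top to shed substrates at the bottom. Blue points are the 9 genes called lower, among them Epgn at -6.04 and Serpinb2 at -3.26, and red points the 3 called higher.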

How the data were processed

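RNA-seq of 4 epidermal libraries was analysed from 1 table of FPKM values deposited by the authors, with a column per library. Bowtie2, DESeq2 and mm10 are named in the submitters' processing notes; how FPKM was made, with which annotation and strand setting, is not given in the sources used here. FPKM + 1 was log2-transformed and fitted with limma 3.58.1 (R 4.3.3; trend, 2-sided, Benjamini-Hochberg over all 11643 rows) on rows with at least 1 FPKM in at least 2 libraries. The test was checked on simulated data with independent rows and changes of 1 or 2 log2 units in a small part of them. That check required only recovery of the changes of 2 units and the right sign, and smaller changes were not covered. With 2 libraries per genotype the smallest exact permutation p is 0.333, so p-values rest on the model. Counts were not used: depth was estimated from single-transcript genes, assuming fragments of 200 bases, where 69.6% to 71.9% of low values were whole within 0.1, and fragment numbers use the longest GENCODE M21 transcript. Positions are 1-based. Members and lists were chosen with earlier results of these data known. Named genes were the called members, the most abundant tested member of each class, a fixed panel and called partners; all tested members are given. The 14 alternatives covered pseudocount, filter, scaling, variance model, fold threshold, replicate block and leaving out each library. A further gene of the partner list, besides the 30 counted, was left out and is not reported here.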

Additional observations from a re-analysis of the deposited data

How the results depend on the processing

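Timp3, Adam8, Plaur and Mmp28 kept their direction and call under every alternative that gave them a value. All 12 called members kept their direction. Members higher in Irx5KO were 5 on the deposited scale, 2 under the median of ratios or quantile normalization, 9 in TPM, 1 with a log2 change of at least 1 and 1 to 8 with a library left out (1 without Irx5KO replicate 1, 2 without Irx5KO replicate 2, 8 without WT replicate 1). Those lower were 7, against 4 with no filter on level (rows at 0 in every library left out) and 5 to 7 with a library left out. Over all rows the higher calls numbered 3127, against 1289 with no filter, 1898 at a mean of at least 5 FPKM, 1226 under the median of ratios, 5577 in TPM, 1516 under quantile normalization, 619 with the fold threshold and 1457 to 4048 with a library left out; the lower calls numbered 1073, against 712 with no filter, 1613 under the median of ratios and 591 with the fold threshold. The members' median change of 0.13 became -0.0083 with no filter, 0.33 at a mean of at least 5 FPKM, -0.12 under the median of ratios, 0.36 in TPM, -0.059 under quantile normalization and 0.071 to 0.24 with a library left out. Partner genes higher numbered 3, against 8 in TPM, 0 with the fold threshold and 1 to 4 with a library left out (1 without Irx5KO replicate 2). Irx5 did not pass in TPM (-0.48, adjusted p = 0.0577), with the fold threshold (-0.70), or without an Irx5KO library, while its change with any library left out was -0.73 to -0.66. Signs turned only for members that did not pass: Mmp14 (-0.13) and Adamtsl5 (-0.0024) under the median of ratios; Adamts10 with a pseudocount of 0.1 (0.012), in TPM (0.19) and with a library left out (-0.22 to 0.22); Mmp9 in TPM (0.019); Adamtsl4 under the median of ratios (-0.12), quantiles (-0.16) and a library left out (-0.094 to 0.28); and Mmp15 under the median of ratios (-0.19), quantiles (-0.24) and a library left out (-0.11 to 0.24). With no filter Adam10, Adam17, Adamts1, Mmp3, Plau and Plat did not pass (adjusted p = 0.0525 to 0.0982). The cause of these changes was not tested. The replicate numbers pair nothing in the labels, and the deviations of same-numbered libraries correlated at -0.0674; with the replicate block 4 members were higher and 7 lower, 5 partner genes were higher, and Adam17 did not pass (adjusted p = 0.0574). A mean of at least 5 FPKM left Plaur, Mmp3, Mmp9, Adam1a, Adamts10 and Adamtsl4 without a value. Fragment numbers are estimates. Intervals rest on 2 libraries per genotype and on a spread drawn toward that of other genes of similar level.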

Other observations

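Ratios between genes of the same library do not depend on how libraries are scaled. The pairs below were chosen after the values were seen and are given without a test. Adam8 stood at 0.319 and 0.373 times the Adam10 level in Irx5KO replicates 1 and 2, against 1.35 and 1.65 times in WT replicates 1 and 2. Timp3 to Adam17, an inhibitor and one of its targets, was 0.576 and 0.557 in Irx5KO and 1.93 and 2.97 in WT. Mmp2 to Mmp14, an enzyme and its activator, was 0.467 and 0.370 in Irx5KO and 0.227 and 0.254 in WT. Adamts1 to Adamts14 was 1.29 and 1.21 in Irx5KO and 2.44 and 5.12 in WT. In each of these pairs the Irx5KO libraries lay on one side of the WT libraries. Plat to Plau overlapped, at 0.388 and 0.376 in Irx5KO and 0.369 and 0.537 in WT.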
